A study of Mus musculus with 12 samples.

Results

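Messenger RNA was compared between MC38 cells given lactate and MC38 cells given saline, in the cells that carried a control guide RNA. The members are 6 RNA sequencing libraries of the 12 in the series. They are 3 libraries of sgControl cells in phosphate-buffered saline (PBS) and 3 libraries of sgControl cells in 20 mM lactate for 24 hours. MC38 is a transplantable mouse colon adenocarcinoma line. The other 6 libraries come from cells with a guide against Hcar1, which encodes a receptor activated by lactate, and enter here only in the closing section. The labels do not give the time in PBS, the form or pH of the lactate, or whether the guide-bearing cells were a clone or a mixed population. Nothing in them states that libraries of one group were separate cultures, and p-values here describe only how far these libraries scatter.

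Values are fragments per kilobase of gene model per 1000000 fragments (FPKM), as deposited, and so can be compared between genes per length. Genes were kept where at least 3 of the 6 libraries reached 1 FPKM, which left 12306 genes of 42329 entries. A gene under 1 FPKM throughout one group could enter only through the other, so the filter fixed its direction. This holds for Car6, Car7, Cd274, Cxcl2, Egr1, Angptl6, Sh2d6, Cox6a2, Gfpt2 and Pfkfb3, which entered through lactate. It also holds for Apln, Akr1c18, Krt13, Krt19, Slc7a3 and Ankrd37, which entered through PBS. Members of lists that are counted but not named may be of this kind too. A change is the difference of log2(FPKM + 1), lactate minus PBS, with its standard error from limma and 3 libraries per group. This scale understates the change of genes at low levels. A gene is said to have risen or fallen where its adjusted p was under 0.05, and counts of 2-fold changes are on the log2(FPKM + 1) scale. The gene lists held 1661 distinct genes, of which 1370 were tested, and counts below cover those only. The depth in reads is unknown, and relative to the deepest library it was 0.886 to 1. Correlation of log2 levels was 0.990 to 0.992 within a group and 0.929 to 0.934 between the groups. A value of 0 need not mean absence, since genes that cells in general use, such as Mrpl53 and Ctsc, were also listed at 0 in all 6 libraries. Of 14 markers of epithelium with an entry, Epcam and Cdx2 were listed at 0 throughout, and the 14 together summed to 4.31 to 4.75 FPKM in PBS and 6.33 to 6.95 FPKM in lactate. Markers of fibroblasts and mesenchyme summed to 1201 to 1222 FPKM in PBS and 1045 to 1083 FPKM in lactate, mostly Vim, with Lum and Thy1 listed at 0. Markers of leukocytes summed to 16.3 to 16.7 FPKM in PBS and 19.9 to 21.0 FPKM in lactate and came almost wholly from Cd14 and Cd68, with 7 of 15 entries, Cd3e and Itgam among them, listed at 0 in every library. Endothelial markers summed to at most 2.28 FPKM.

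Lactate is the end product of glycolysis, leaves and enters cells with a proton through monocarboxylate transporters, and is made from pyruvate by lactate dehydrogenase while NADH is turned back to NAD+. Cells answer a shortage of amino acids, misfolded protein in the endoplasmic reticulum or mitochondrial trouble by phosphorylating the initiation factor eIF2, which slows translation in general and favours the transcription factor ATF4. ATF4 drives genes for amino acid import, synthesis and tRNA charging. The unfolded protein response adds the sensors IRE1, PERK and ATF6, which raise chaperones and degradation enzymes of the endoplasmic reticulum. Hypoxia-inducible factor (HIF) raises glycolytic enzymes and is held down by prolyl hydroxylases that use oxygen and 2-oxoglutarate.

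Lactate moved most of the genes these cells express, and mostly by small amounts. Of 12306 genes, 8711 (70.8%) passed the threshold. Of these 4484 were higher in lactate (36.4% of genes tested) and 4227 lower (34.3%), and the median change over all genes tested was 0.01. The median absolute change of the called genes was 0.45. At least 2-fold changes were found for 581 genes that were higher (4.72%) and 403 that were lower (3.27%). Changes of 4-fold or more numbered 84 higher and 26 lower. PBS and lactate libraries did not overlap for 9206 genes (74.8%). These shares are the background for the counts that follow.

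**Figure D1:**
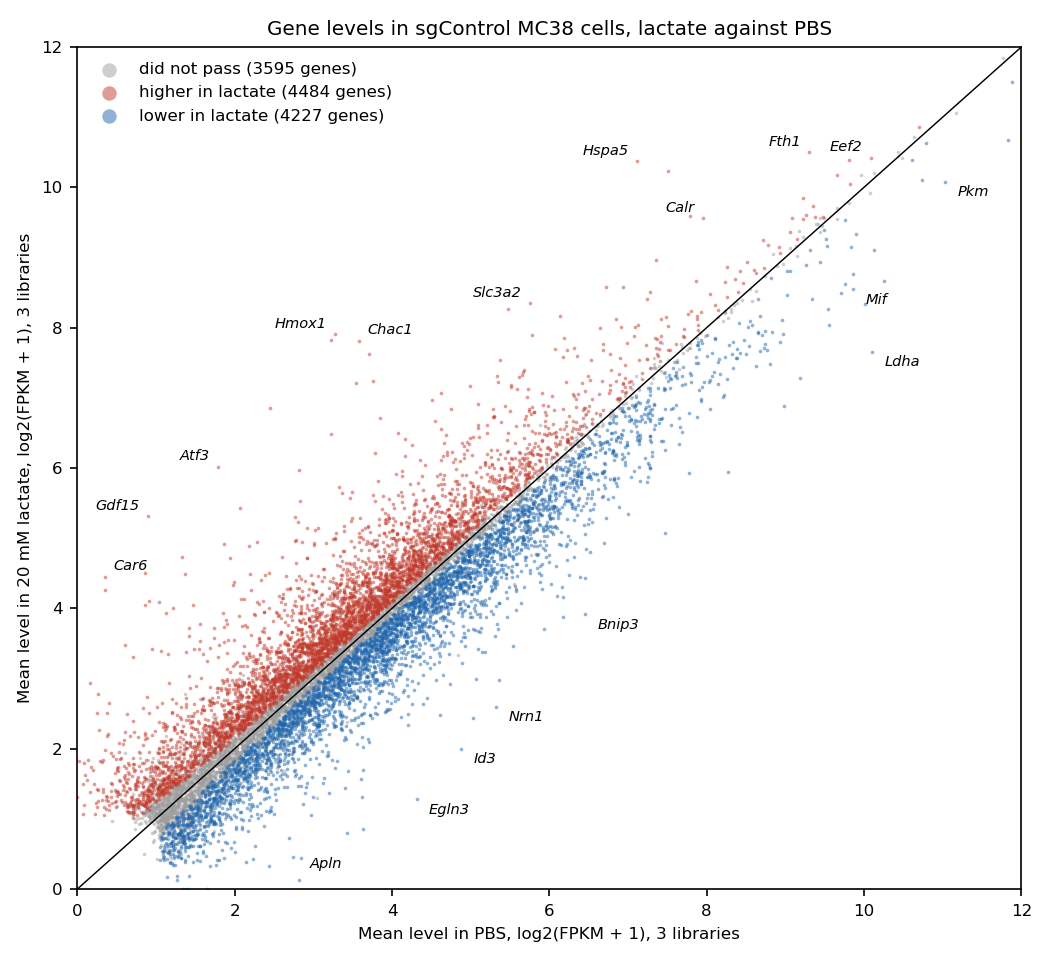
Mean level of each of 12306 genes in PBS (x axis) and in 20 mM lactate (y axis), both as log2(FPKM + 1) over 3 libraries. The line marks equal levels. Hspa5, at 137 FPKM in PBS and 1329 in lactate, stands far above the line among abundant genes, and Ldha, at 1096 and 201 FPKM, far below it.

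Regulators of the integrated stress response made up 5 of the 10 largest log2 rises among genes with a standard symbol (Trib3, Gdf15, Atf3, Ddit3 and Ppp1r15a). Of 19 tested, 14 rose, 3 fell and 2 missed the threshold, with a median change of 1.75 against 0.01 over all genes. Atf4 itself, the transcription factor at the centre of the response, was at 226, 216 and 221 FPKM with PBS and 767, 769 and 767 FPKM with lactate. Its libraries were far apart, with a change of 1.79 ± 0.03 (limma adjusted p = 5.25e-08). Other basic leucine zipper factors moved with it. Cebpb, a C/EBP factor, went from 53.7, 51.5 and 57.1 FPKM to 228, 251 and 234 FPKM (2.12 ± 0.05). Atf5, a relative of Atf4, went from 31.4, 29.4 and 31.5 FPKM to 140.4, 142 and 144 FPKM (2.18 ± 0.03). Further along the pathway the levels started lower and the steps were larger. Ddit3, which encodes the stress factor CHOP, was at 12.6, 10.9 and 12.8 FPKM with PBS and 187, 191 and 214 FPKM with lactate (3.92 ± 0.07). Atf3, a repressor induced by stress, was at 2.57, 1.92 and 2.88 FPKM and then 60.7, 63.2 and 67.9 FPKM (4.24 ± 0.10). Ppp1r15a, the stress-induced subunit of the eIF2 phosphatase, was at 10.2, 10.9 and 10.8 FPKM and then 149.9, 147 and 145 FPKM (3.68 ± 0.03), while the constitutive subunit gene Ppp1r15b changed by 0.42 ± 0.04. The kinases that phosphorylate eIF2 differed among themselves. Eif2ak3 (PERK, the endoplasmic reticulum kinase) rose by 0.79 ± 0.04. Eif2ak1 (the heme-regulated kinase) and Eif2ak2 (the kinase sensing double-stranded RNA) fell, by 0.20 and 0.41 on the log2 scale. Eif2ak4 (GCN2, which senses uncharged tRNA) did not pass (0.14 ± 0.06, adjusted p = 0.0775). Ddit4, a stress-induced inhibitor of mTORC1, fell too, against the list median, from 27.1, 27.6 and 27.98 FPKM to 22.6, 20.2 and 22.9 FPKM (-0.32 ± 0.05). Sesn2, another such inhibitor, rose from 2.92, 2.67 and 3.24 FPKM to 18.7, 18.6 and 20.4 FPKM (2.36 ± 0.07).

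Genes that charge cytosolic tRNA rose while those that charge mitochondrial tRNA did not follow. Of 20 cytosolic aminoacyl-tRNA synthetases 15 rose, 4 fell and 1 missed the threshold (median 1.29, 11 of them at least 2-fold). Of 17 mitochondrial synthetases 4 rose, 8 fell and 5 missed the threshold (median -0.11). Nars, for asparagine, was the most abundant in lactate and went from 102, 107 and 103 FPKM to 380.2, 385 and 379 FPKM (1.86 ± 0.03, limma adjusted p = 3.99e-08). Sars, for serine, went from 40.4, 38.9 and 39.7 FPKM to 147, 152 and 149.6 FPKM (1.89 ± 0.03). Wars, for tryptophan, went from 25.3, 24.2 and 23.5 FPKM to 82.01, 79.1 and 80.97 FPKM (1.69 ± 0.03). In each of these the lowest lactate library was more than 3 times the highest PBS library. Dars and Hars, for aspartate and histidine, fell instead. Dars was at 29.9, 31.9 and 29.6 FPKM with PBS and 25.4, 26.5 and 25.9 FPKM with lactate (-0.22 ± 0.04). Hars was at 48.6, 46.4 and 48.4 FPKM and 38.98, 36.4 and 39.2 FPKM (-0.32 ± 0.04). Among the mitochondrial enzymes Cars2, for cysteine, fell from 17.9, 15.5 and 17.3 FPKM to 10.8, 11.4 and 11.6 FPKM (-0.54 ± 0.06). Ears2 rose, from 2.08, 1.96 and 2.01 FPKM to 4.26, 3.904 and 3.57 FPKM (0.70 ± 0.07). A cytosolic and a mitochondrial gene were set side by side for 13 amino acids, and in 12 of these the cytosolic gene rose. Of the 12 mitochondrial partners 2 rose (Nars2 and Wars2), 6 fell and 4 missed the threshold.

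**Figure D2:**
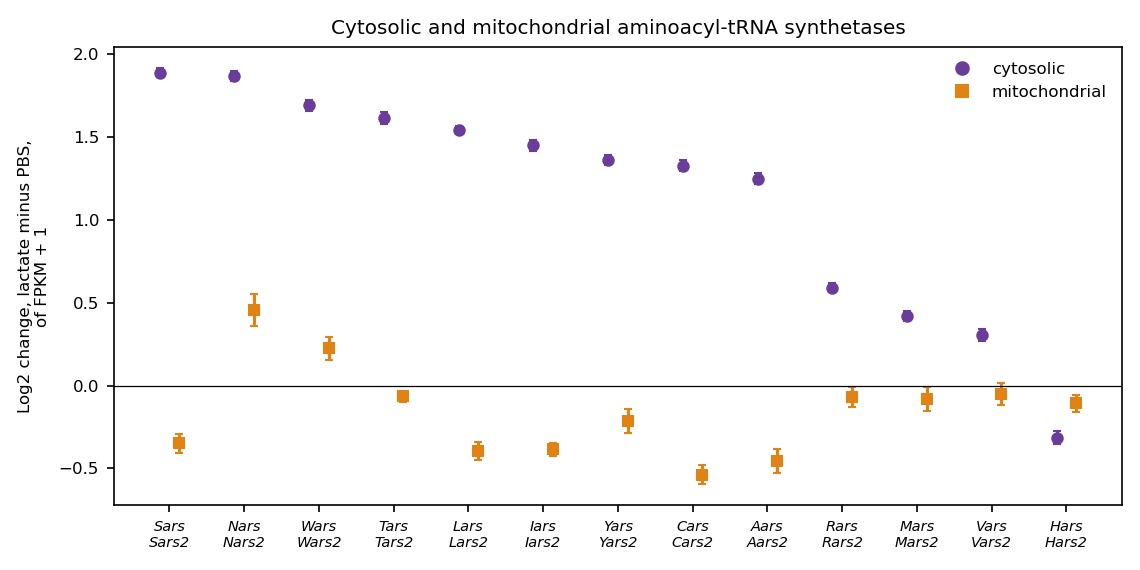
Change of the cytosolic (circles) and mitochondrial (squares) aminoacyl-tRNA synthetase gene for 13 amino acids, as log2(FPKM + 1), lactate minus PBS. Bars are standard errors from limma with 3 libraries per group. Cytosolic genes reach 1.89 (Sars), and the lowest mitochondrial gene shown is Cars2 at -0.54.

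Amino acid import and synthesis rose in the same libraries. Of 15 plasma membrane amino acid transporters tested 12 rose, 2 fell and 1 missed the threshold (median 1.56), and 11 rose at least 2-fold. Slc3a2, the heavy chain shared by several exchangers, was at 54.3, 50.4 and 54.1 FPKM with PBS and 323, 326 and 329 FPKM with lactate (2.60 ± 0.04, limma adjusted p = 3.33e-08). Slc7a11, its light chain for cystine, was at 2.53, 2.62 and 2.7996 FPKM and 12.6, 12.3 and 12.2 FPKM (1.87 ± 0.05). Slc7a5, its light chain for leucine and other large amino acids, was at 52.2, 48.3 and 49.6 FPKM and 163, 168 and 170.1 FPKM (1.72 ± 0.04). All 3 were separated from PBS in every library, as were 74.8% of all genes tested. The glycine transporter gene Slc6a9 had the largest change of the list, from 5.897, 6.12 and 6.23 FPKM to 62.3, 60.3 and 63.3 FPKM (3.15 ± 0.03). Slc7a1, for arginine and lysine, went from 9.697, 8.87 and 9.29 FPKM to 50.1, 48.4 and 48.7 FPKM (2.28 ± 0.04). Slc7a3, a low-level paralogue of it, fell from 1.55, 1.49 and 1.27 FPKM to 0.699, 0.719 and 0.729 FPKM (-0.50 ± 0.09). Slc6a6, the taurine transporter gene, was lower by a narrow margin, at 46.2, 43.5 and 43.7 FPKM with PBS and 42.3, 39.8 and 40.9 FPKM with lactate (-0.11 ± 0.04). That call was lost without PBS library 1, lactate library 2 or lactate library 3, under quantile normalization or rescaling to one sum, and without the intensity trend.

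Among serine and folate one-carbon enzymes Aldh1l2, Psph, Shmt2 and Mthfd2 had the largest rises, and all but Psph are mitochondrial. Of 17 tested 10 rose, 4 fell and 3 missed the threshold (median 0.23). Aldh1l2, which oxidises formyl-tetrahydrofolate in mitochondria, was at 3.35, 2.88 and 3.37 FPKM with PBS and 44.2, 39.4 and 42.7 FPKM with lactate (3.36 ± 0.06). Shmt2, the mitochondrial serine hydroxymethyltransferase, was at 41.5, 37.9 and 42.1 FPKM and 186, 183 and 184 FPKM (2.16 ± 0.04). Mthfd2, the mitochondrial dehydrogenase of the pathway, was at 16.4, 15.8 and 17.2 FPKM and 62.2, 58.9 and 61.6 FPKM (1.83 ± 0.04). Cytosolic enzymes of the same steps moved less or the other way: Shmt1 rose by 0.31 ± 0.04 and Mthfd1 changed by -0.42 ± 0.04. Serine synthesis showed the same unevenness, with Phgdh, its entry step, not analysed here. Psph, which takes the phosphate off phosphoserine, rose from 5.95, 5.74 and 5.97 FPKM to 29.9, 29.8 and 31.6 FPKM (2.19 ± 0.04), and Psat1, the step before it and the most abundant of the list in PBS, rose from 99.01, 97.9 and 97.4 FPKM to 127, 134 and 136 FPKM (0.43 ± 0.03).

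Of 17 enzymes of asparagine, proline, glutamate and phosphoenolpyruvate synthesis, 9 rose, 4 fell and 4 missed the threshold (median 0.29). Asns, asparagine synthetase, was at 40.3, 39.9 and 37.4 FPKM with PBS and 154, 161 and 157 FPKM with lactate (1.98 ± 0.04). Pck2, which makes phosphoenolpyruvate in mitochondria, was at 26.1, 25.2 and 26.6 FPKM and 114, 115 and 113 FPKM (2.09 ± 0.03). Gpt2, the mitochondrial alanine aminotransferase, was at 4.24, 3.51 and 3.87 FPKM and 29.3, 30.7 and 29.4 FPKM (2.66 ± 0.06). The proline pathway split by enzyme. Aldh18a1, its first step, and Pycr1, a last step, rose by 1.81 ± 0.04 and 1.75 ± 0.06, while Pycrl, the cytosolic last step, fell from 28.1, 29.7 and 30.9 FPKM to 20.6, 21.04 and 20.99 FPKM (-0.48 ± 0.04). Glul, glutamine synthetase, fell from 20.7, 20.6 and 19.8 FPKM to 16.2, 14.2 and 15.3 FPKM (-0.40 ± 0.05). In glutathione and cysteine metabolism 8 of 14 rose and 5 fell. Chac1, a glutathione-degrading enzyme, was at 11.05, 10.7 and 11.3 FPKM with PBS and 226, 209.7 and 237 FPKM with lactate (4.23 ± 0.05), and its paralogue Chac2 fell by 0.50 on the log2 scale. Cth, which makes cysteine from cystathionine, was at 1.86, 0.842 and 1.27 FPKM and 14.9, 14.8 and 15.6 FPKM (2.81 ± 0.15). The peroxidase gene Gpx1 fell from 128, 126 and 129 FPKM to 69.3, 71.5 and 79.7 FPKM (-0.79 ± 0.05).

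Promoters of several of these genes hold the core of the C/EBP-ATF response element, which ATF4 binds with a C/EBP partner. The letters searched were TGATGNAA on both strands, from 250 bases before to 50 bases after the gene start, in the RefSeq windows of GRCm38.p6. They were found in 3.97% of all 32851 windows (4.51% of the genes they belong to). In the regulators list 3 of 17 genes with a window held the letters (17.6%): Atf3, Nupr1 and Trib3, the last of them after the start. Among serine and folate one-carbon enzymes 0 of 14 with a window held them. Of 217 tested genes found to hold the letters 113 rose (52.1%), 61 fell (28.1%) and 43 missed the threshold. Of tested genes with a window but without the letters, 38.4% rose and 35.8% fell. Windows were matched for 13 of 20 cytosolic synthetases, which is too few for a share over that list, and the same holds for the genes tested as a whole. Nupr1, Gars, Tars, Slc1a4, Got1 and Pycr1 also had a match ahead of the start and rose, but are not printed. The 5 genes below were picked from the listed genes with such a match, and rose by 1.248 (Aars) to 4.24 (Atf3) on the log2 scale. Their stretches are printed 5′ to 3′ on the strand of the gene, with the matched letters in capitals.
Atf3: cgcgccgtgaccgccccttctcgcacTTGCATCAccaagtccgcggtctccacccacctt
Asns: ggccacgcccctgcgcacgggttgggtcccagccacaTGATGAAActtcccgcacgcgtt
Slc7a11: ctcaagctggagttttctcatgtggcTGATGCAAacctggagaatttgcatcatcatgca
Aars: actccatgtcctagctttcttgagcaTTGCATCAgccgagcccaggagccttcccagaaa
Pck2: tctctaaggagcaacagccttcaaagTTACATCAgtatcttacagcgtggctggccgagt
The Atf3 stretch is chr1:191183410-191183469 on the minus strand, that of Asns chr6:7693210-7693269 (minus), that of Slc7a11 chr3:50443646-50443705 (minus), that of Aars chr8:111033704-111033763 (plus) and that of Pck2 chr14:55540137-55540196 (plus). Slc7a11 holds the letters in both directions, and the second copy is in lower case near the end of its line. A match describes the letters only.

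Most chaperones of the endoplasmic reticulum rose. Of 28 chaperones and folding enzymes of the endoplasmic reticulum 22 rose, 2 fell and 4 missed the threshold (median 0.73, 13 of them at least 2-fold higher). Hspa5, the central Hsp70 of this compartment (BiP), was at 136, 136 and 139 FPKM with PBS and 1341, 1328 and 1317 FPKM with lactate (3.27 ± 0.03, limma adjusted p = 1.42e-08). This was the largest rise in FPKM among tested genes with a standard symbol. Calr, a lectin chaperone that holds calcium, was at 241, 252 and 245 FPKM and 769, 741 and 751 FPKM (1.61 ± 0.03). Hsp90b1, the Hsp90 of the compartment, was at 146, 156 and 148 FPKM and 348, 337 and 331 FPKM (1.17 ± 0.04). Dnajb9, a co-chaperone of Hspa5, started low, at 6.58, 5.96 and 5.77 FPKM, and reached 45.9, 45.9 and 44.4 FPKM (2.71 ± 0.05). P4hb, the most abundant protein disulfide isomerase in PBS, went down, from 341, 348 and 329.6 FPKM to 266, 264 and 269.6 FPKM (-0.35 ± 0.03). The share of the summed FPKM held by the 28 genes was 0.595% in PBS and 1.48% in lactate.

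Sensors and degradation genes of the same compartment followed. Of 10 sensors and transcription factors 8 rose and 2 missed the threshold (median 0.78). Xbp1, the factor whose mRNA IRE1 splices, was at 12.7, 12.7 and 14.8 FPKM with PBS and 102, 107 and 102 FPKM with lactate (2.87 ± 0.06). Atf6, a membrane-bound factor released by cleavage, was at 5.797, 6.03 and 6.06 FPKM and 37.2, 35.8 and 37.2 FPKM (2.44 ± 0.03). Ern1, which encodes IRE1, was at 4.24, 3.77 and 3.64 FPKM and 16.3, 16.3 and 15.5 FPKM (1.803 ± 0.06). FPKM per gene does not tell the spliced from the unspliced form of Xbp1. Of 20 genes of endoplasmic reticulum-associated degradation 17 rose, 1 fell and 2 missed the threshold (median 0.54). Herpud1, a ubiquitin-like scaffold, went from 42.1, 42.9 and 45.3 FPKM to 312, 297 and 313 FPKM (2.79 ± 0.04). Syvn1, the ubiquitin ligase of the complex, went from 11.5, 10.6 and 11.1 FPKM to 39.1, 37.7 and 37.6 FPKM (1.70 ± 0.04). Of 35 translocon and COPII export genes 24 rose and 6 fell (median 0.29), with 2 at least 2-fold higher: Sec24d (1.19 ± 0.04) and Sec11c (1.12 ± 0.03).

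Of the 8 chaperone genes with an endoplasmic reticulum stress response element in their promoter window, all rose. The element was searched as CCAAT, any 9 bases and then CCACG, on both strands of the same windows; it was found in 0.119% of all windows (0.137% of all genes with a window) and in 8 of 24 chaperone genes with a window (33.3%). Of the 20 chaperone genes with a window that rose, 8 held it (40%), so most that rose lacked it. Of 16 degradation genes with a window, Syvn1 held it too. Among all tested genes with a window it was found in 14, of which 13 rose and 1 (Hnrnpa3, an RNA-binding protein gene) fell, with a median change of 1.26 and 9 at least 2-fold higher. Besides the 9 of these lists, the 14 held Zfp57, Alg12, Pan2 and Adcy3, which rose by 1.48, 0.85, 0.18 and 0.11. The element is a known binding site of the unfolded protein response, and the lists were written from that biology, so the chaperones are not an independent sample of it. The stretches are shown because the 8 chaperone genes that hold these letters rose from very different levels, 1.245 FPKM (Ero1lb) to 246 FPKM (Calr) in PBS.
Hspa5: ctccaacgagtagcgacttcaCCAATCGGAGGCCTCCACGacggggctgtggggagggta
Calr: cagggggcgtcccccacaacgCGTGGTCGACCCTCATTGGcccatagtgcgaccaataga
Hsp90b1: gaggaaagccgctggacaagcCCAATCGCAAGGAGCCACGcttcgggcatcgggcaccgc
Dnajc3: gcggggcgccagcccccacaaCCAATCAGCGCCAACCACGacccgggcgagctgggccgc
Creld2: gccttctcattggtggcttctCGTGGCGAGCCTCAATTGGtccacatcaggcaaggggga
Ero1lb: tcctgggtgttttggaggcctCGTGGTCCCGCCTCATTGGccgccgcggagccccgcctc
Pdia6: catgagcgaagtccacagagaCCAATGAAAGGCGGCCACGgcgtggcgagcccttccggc
Canx: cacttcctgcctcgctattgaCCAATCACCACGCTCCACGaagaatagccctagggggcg
Syvn1: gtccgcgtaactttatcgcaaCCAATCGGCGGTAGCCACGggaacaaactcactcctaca
Capitals mark the element, which reads in the direction given above in Hspa5, Hsp90b1, Dnajc3, Pdia6, Canx and Syvn1 and in reverse complement in Calr, Creld2 and Ero1lb. The Hspa5 stretch lies at chr2:34772004-34772063 (plus strand), with the element starting 65 bases before the gene start. The Calr stretch lies at chr8:84847055-84847114 (minus), that of Hsp90b1 at chr10:86705618-86705677 (minus) and that of Canx at chr11:50325780-50325839 (minus). Those of Dnajc3 (chr14:118937806-118937865), Creld2 (chr15:88819499-88819558), Ero1lb (chr13:12565661-12565720), Pdia6 (chr12:17266470-17266529) and Syvn1 (chr19:6046511-6046570) are on the plus strand. Hsp90b1 holds a further copy in reverse complement, starting 107 bases before its start. Changes in this order were 3.27, 1.61, 1.17, 1.35, 1.67, 1.77, 1.09, 0.46 and 1.70, so the presence of the letters went with changes of unequal size.

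Of 23 cytosolic heat shock chaperones 10 rose and 13 fell (median -0.21), and none rose 2-fold. Hspa1a, Hspa8 and Hsp90aa1 are among the listed genes not analysed here. Hsp90ab1, the constitutive Hsp90, was at 1588, 1568 and 1514 FPKM with PBS and 1369, 1341 and 1317 FPKM with lactate (-0.21 ± 0.04). Cryab, a small heat shock protein gene, fell most, from 72.3, 72.8 and 76.7 FPKM to 28.2, 28.7 and 30.3 FPKM (-1.32 ± 0.04). Hsf2, a heat shock factor, rose most, from 9.61, 9.99 and 9.79 FPKM to 18.1, 19.4 and 19.3 FPKM (0.89 ± 0.04). Mitochondrial chaperones and proteases were mixed: 7 of 14 rose and 3 fell (median 0.11). Hspa9, the mitochondrial Hsp70, went from 154, 156 and 153 FPKM to 374, 357 and 360.2 FPKM (1.23 ± 0.03). Lonp1, the matrix protease, went from 103, 97.4 and 97.9 FPKM to 264, 244 and 255 FPKM (1.35 ± 0.04). Hspd1 and Hspe1, the chaperonin pair, changed less, by 0.29 ± 0.04 and -0.20 ± 0.06.

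**Figure D3:**
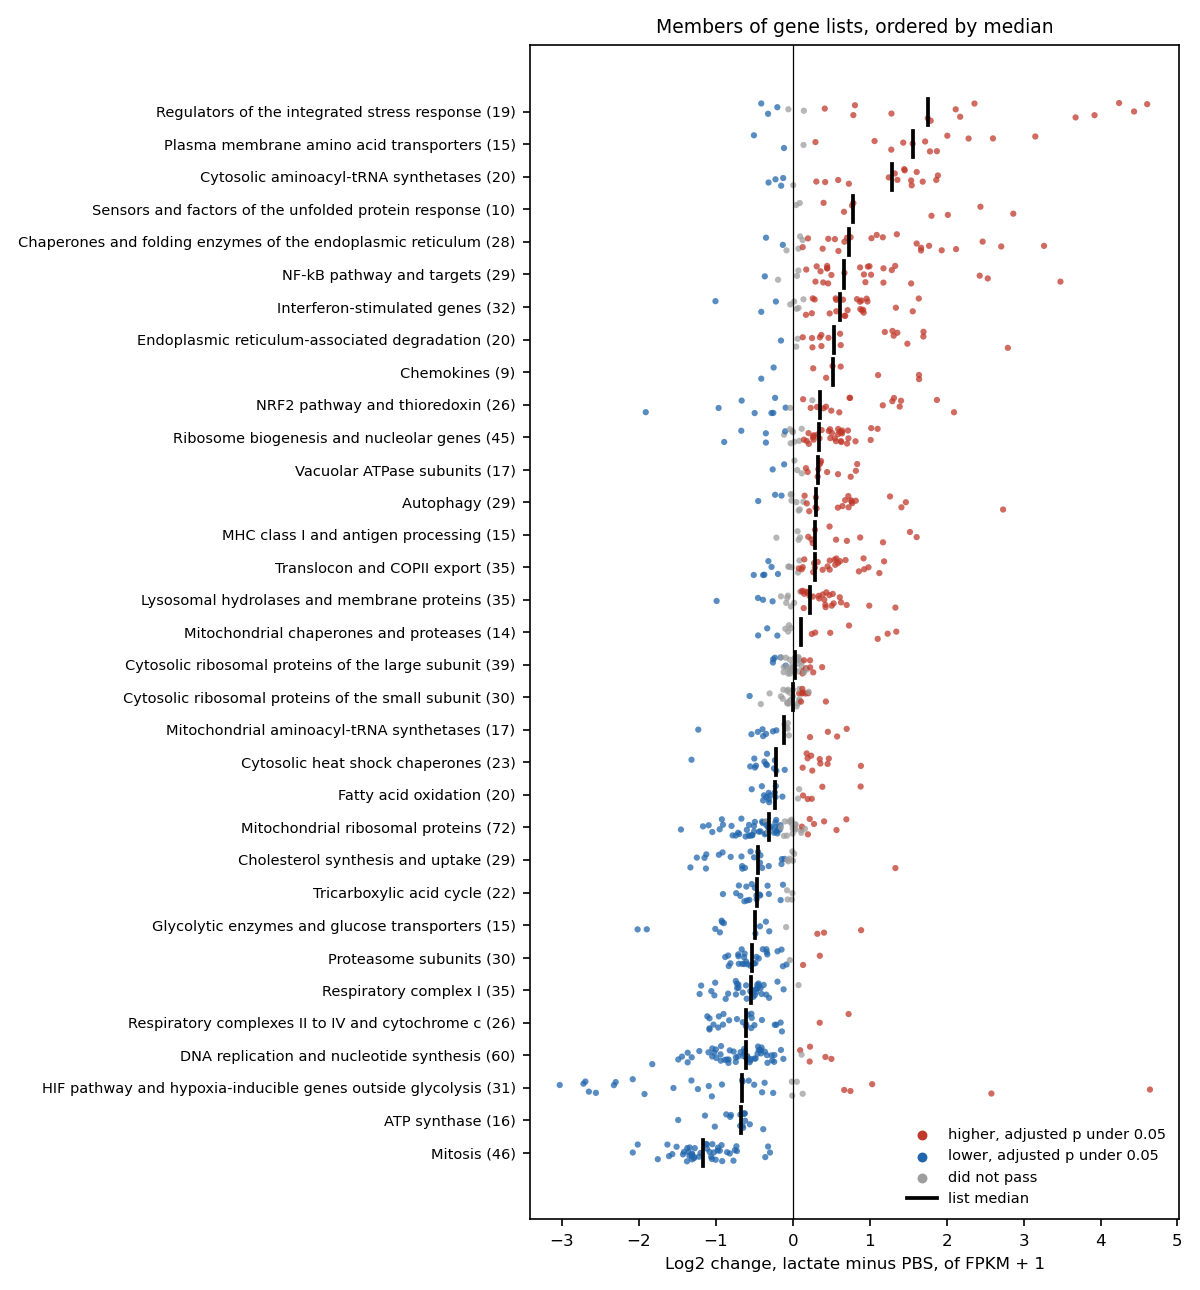
Change of each tested member (points) of 33 gene lists, as log2(FPKM + 1), lactate minus PBS, with the number of members in parentheses and the list median as a black bar. Regulators of the integrated stress response have the highest median (1.75) and mitosis genes the lowest (-1.16). The vertical spread of points within a list carries no value.

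Most ribosomal protein genes did not pass the threshold, while most genes that build ribosomes rose. Of 39 large-subunit proteins 8 rose, 5 fell and 26 missed the threshold (median 0.02). Of 30 small-subunit proteins 8 rose, 1 fell and 21 missed the threshold (median 0.00). No member of either list changed 2-fold, and the share that passed was 33.3% and 30%, against 70.8% of all genes. Rpl8, the most abundant large-subunit gene, was at 1764, 1709 and 1814 FPKM with PBS and 1572, 1536 and 1627 FPKM with lactate (-0.16 ± 0.04). Rps2 fell most, from 912, 958 and 987 FPKM to 676, 591 and 671 FPKM (-0.56 ± 0.06). Many ribosomal protein genes have near-identical pseudogenes, and the sources do not say how fragments with several matches were counted, so their single values are uncertain. Of 45 ribosome biogenesis and nucleolar genes 32 rose, 5 fell and 8 missed the threshold (median 0.35). Gnl3, nucleostemin, went from 53.01, 53.8 and 51.1 FPKM to 113, 116 and 113 FPKM (1.10 ± 0.03). Nop10 and Nhp2, small proteins of the H/ACA particle, changed by -0.89 ± 0.06 and -0.67 ± 0.03. Of 40 translation factors 21 rose and 13 fell. Eif1a rose most, from 31.1, 31.3 and 32.1 FPKM to 71.2, 72.5 and 72.3 FPKM (1.17 ± 0.03), and Eif5a fell most, from 629, 675 and 639 FPKM to 341, 339 and 336 FPKM (-0.93 ± 0.04).

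Most proteasome subunits fell. Of 30 subunits 27 fell, 2 rose and 1 missed the threshold (median -0.53), none of them by 2-fold. Psma2 was at 151, 153 and 159 FPKM with PBS and 79.6, 85.4 and 85.4 FPKM with lactate (-0.88 ± 0.04). Psmd8 went against the list, from 162, 165 and 160.3 FPKM to 204, 202 and 217 FPKM (0.35 ± 0.04). Nfe2l1, a membrane-bound factor known for inducing proteasome genes, was at 48.4, 50.4 and 50.9 FPKM and 166, 164 and 162 FPKM (1.70 ± 0.03).

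Most nuclear genes for mitochondrial energy metabolism fell. In complex I, 34 of 35 fell and 1 missed the threshold (median -0.54). In complexes II to IV with cytochrome c, 24 of 26 fell and 2 rose (median -0.61). In ATP synthase all 16 tested fell (median -0.67). Ndufv3, an accessory subunit of complex I, was at 25.5, 25.8 and 24.9 FPKM with PBS and 10.3, 10.8 and 10.2 FPKM with lactate (-1.21 ± 0.04). Atp5k, a small subunit of ATP synthase, was at 62.3, 65.2 and 73.9 FPKM and 23.6, 21.2 and 24.97 FPKM (-1.49 ± 0.08). Cox7a2l, which helps join complexes III and IV, was the larger of the 2 rises in that list, from 76.2, 75.3 and 83.2 FPKM to 127, 129.9 and 132 FPKM (0.73 ± 0.04). Cox6a2, a complex IV isoform outside the list at a low level in PBS, rose as well (2.78 ± 0.10). Subunits of one complex moved unequally: Sdha and Sdhd, the catalytic and a membrane subunit of complex II, changed by -0.16 ± 0.04 and -0.91 ± 0.03. The mitochondrially encoded subunits were not analysed here. In the tricarboxylic acid cycle 18 of 22 fell and 4 missed the threshold (median -0.47). Cs, citrate synthase and the most abundant of them, changed by -0.13 ± 0.03 and Mdh2, malate dehydrogenase, by -0.70 ± 0.05. Of 72 mitochondrial ribosomal proteins 46 fell, 7 rose and 19 missed the threshold (median -0.30), with Mrpl18 the lowest (-1.45 ± 0.05).

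Mitochondrial carriers moved in both directions. Of 32 tested 16 rose and 12 fell. The ADP/ATP carriers fell: Slc25a5 was at 258, 257 and 270.0 FPKM with PBS and 114, 109.6 and 117 FPKM with lactate (-1.20 ± 0.04), and Slc25a4 at 328, 333 and 336 FPKM and 188, 183 and 196 FPKM (-0.81 ± 0.03). The iron carrier Slc25a37 rose, from 24.8, 25.6 and 23.7 FPKM to 90.4, 86.7 and 85.3 FPKM (1.78 ± 0.04). Slc25a33, a pyrimidine nucleotide carrier, rose from 3.61, 4.63 and 4.41 FPKM to 22.6, 22.5 and 18.998 FPKM (2.10 ± 0.10). Slc25a10, for dicarboxylates, fell from 16.6, 14.7 and 15.1 FPKM to 5.28, 5.44 and 5.498 FPKM (-1.36 ± 0.05).

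Transcripts for glucose use and most hypoxia genes were lower, while that of Hif1a was higher. Of 15 glycolytic enzymes and glucose transporters tested 11 fell, 3 rose and 1 missed the threshold (median -0.49). Of those that rose, Pfkfb3 was in the list only through its lactate libraries. Pfkl, the liver-type phosphofructokinase, was at 88.05, 87.3 and 84.4 FPKM with PBS and 20.5, 19.9 and 21.5 FPKM with lactate (-2.02 ± 0.04). Pkm, pyruvate kinase and the most abundant of the list, was at 2089.6, 2123 and 2055 FPKM and 1076, 1045 and 1128 FPKM (-0.95 ± 0.04). Isoforms at one step differed. Hk2 rose from 16.8, 16.1 and 14.1 FPKM to 30.1, 30.1 and 28.96 FPKM (0.89 ± 0.06), while Hk1 changed by -0.90 ± 0.04. Of the 3 phosphofructokinases, Pfkp and Pfkm changed by -0.35 ± 0.04 and -0.31 ± 0.04, less than Pfkl. The glucose transporter gene Slc2a1 did not pass (-0.09 ± 0.04, limma adjusted p = 0.102). Gapdh, Pgk1, Pgam1 and Eno1 were not analysed here. The list's share of summed FPKM was 1.08% in PBS and 0.549% in lactate.

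Of 31 genes of the HIF pathway outside glycolysis 22 fell, 5 rose and 4 missed the threshold (median -0.66, 14 at least 2-fold lower). Of those that fell, Ankrd37 was in the list only through its PBS libraries. Vegfa, a standard target, was not analysed here. Hif1a, the oxygen-regulated subunit, was at 22.8, 24.6 and 23.7 FPKM with PBS and 40.3, 41.1 and 40.1 FPKM with lactate (0.75 ± 0.03). Its partner Arnt rose by 0.67 ± 0.03. The prolyl hydroxylases that mark HIF for destruction differed. Egln3 was at 19.97, 19.2 and 17.5 FPKM and 1.57, 1.47 and 1.26 FPKM (-3.03 ± 0.07), Egln1 changed by -1.93 ± 0.05, and Egln2, which is not known as a hypoxia-induced gene, did not pass (-0.01 ± 0.05). Bnip3, a mitophagy receptor, was at 84.3, 82.8 and 93.7 FPKM with PBS and 15.6, 16.1 and 10.6 FPKM with lactate (-2.56 ± 0.14). Car9, a surface carbonic anhydrase used as a hypoxia marker, was at 4.12, 3.36 and 3.59 FPKM and 1.61, 1.07 and 1.14 FPKM (-1.05 ± 0.11). The 5 that rose were Hmox1, Stc2, Ndrg1, Hif1a and Arnt. Stc2, a secreted glycoprotein gene that ATF4 is also known to induce, went from 1.71, 1.82 and 1.76 FPKM to 15.2, 14.7 and 16.8 FPKM (2.58 ± 0.06). In lactate handling, Slc16a3 (the exporter MCT4) went from 40.8, 40.4 and 39.6 FPKM to 7.46, 6.48 and 6.65 FPKM (-2.39 ± 0.05) and Slc16a1 (MCT1) from 23.6, 23.3 and 22.5 FPKM to 38.4, 38.3 and 38.4 FPKM (0.71 ± 0.03), so the 2 transporters moved apart. Their shared chaperone Bsg fell by 1.16 on the log2 scale. The core of the hypoxia response element, ACGTG, is short and was found in 19.6% of all windows (21.8% of all genes with a window); windows were matched for 23 of 31 genes of this list, too few for a share.

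**Figure D4:**
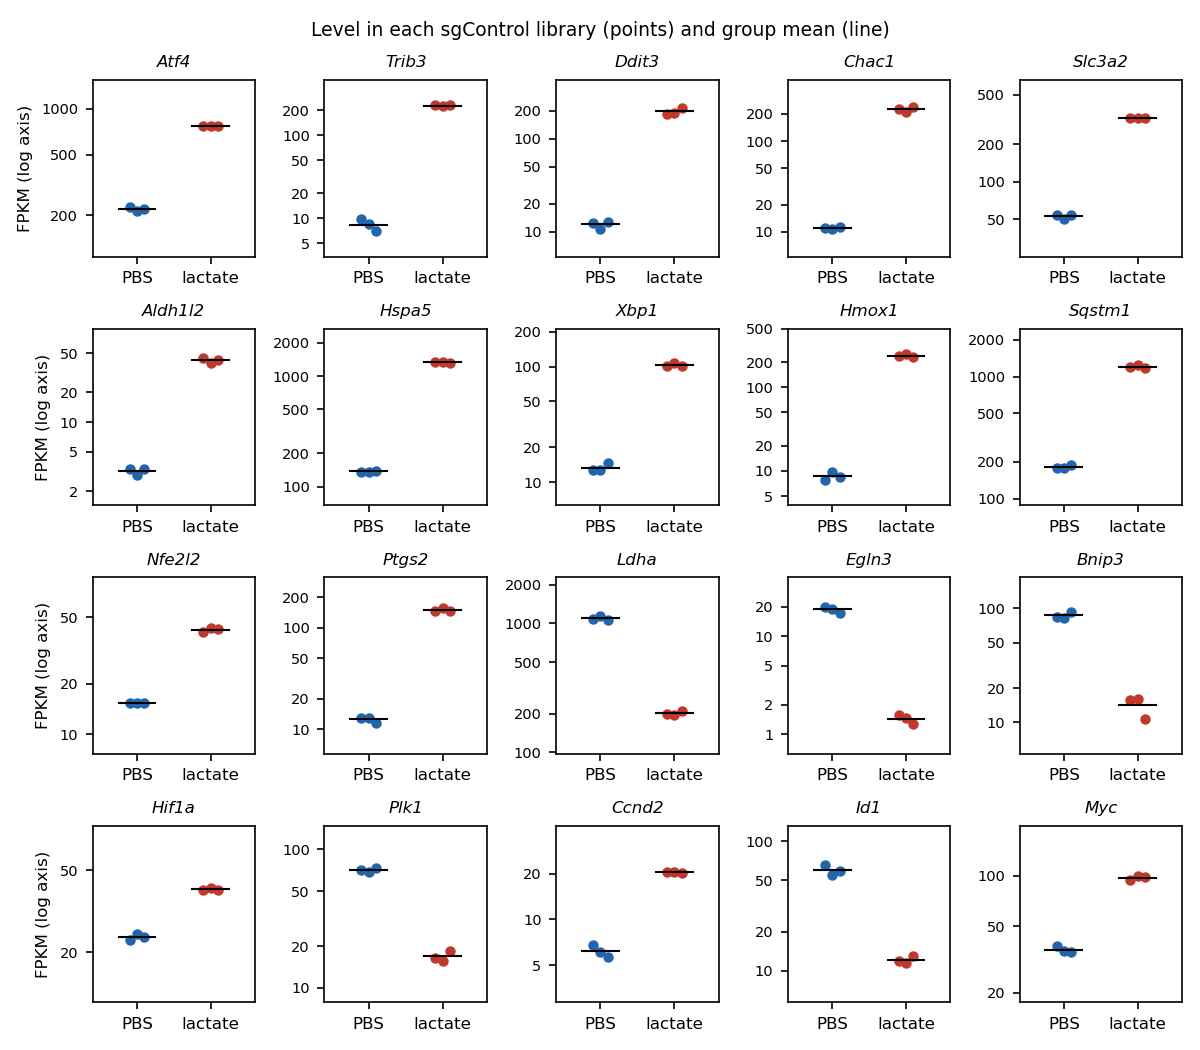
FPKM of 20 genes in each of the 3 PBS and 3 lactate libraries of sgControl cells (points, log axis) with the mean of the group (line). The 20 genes were picked. PBS and lactate points do not overlap in any of the 20 panels, as was so for 74.8% of all genes tested. Bnip3 was at 84.3, 82.8 and 93.7 FPKM with PBS and 15.6, 16.1 and 10.6 FPKM with lactate.

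Cell division genes were lower throughout. All 46 mitosis genes tested fell (median -1.16), 32 of them at least 2-fold. Plk1, a mitotic kinase, was at 71.6, 68.5 and 74.02 FPKM with PBS and 16.5, 15.7 and 18.6 FPKM with lactate (-2.02 ± 0.06). Cdc20, which activates the anaphase-promoting complex and is the most abundant of the list in PBS, was at 200.4, 196 and 203 FPKM and 81.2, 76.6 and 82.1 FPKM (-1.31 ± 0.04). The mitosis genes held 0.825% of summed FPKM in PBS and 0.383% in lactate. In bulk RNA, fewer cells of a kind and less RNA per cell cannot be told apart. Of 60 DNA replication and nucleotide synthesis genes 54 fell, 5 rose and 1 missed the threshold (median -0.61). Rrm2, the S-phase subunit of ribonucleotide reductase, was at 108, 104 and 102 FPKM and 36.2, 38.9 and 38.9 FPKM (-1.44 ± 0.04). Its stress-induced counterpart Rrm2b was at 2.25, 2.64 and 2.39 FPKM and 3.68, 4.22 and 3.65 FPKM (0.50 ± 0.07), so the 2 subunits went in opposite directions. The letters TTTGAA, the cell cycle genes homology region, were found in 17.9% of all windows (20.2% of all genes with a window) and in 27 of 39 mitosis genes with a window (69.2%).

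Controllers of the cell cycle moved in both directions. Of 14 D-type cyclins, kinase inhibitors and retinoblastoma family genes 8 fell, 5 rose and 1 missed the threshold. The D-type cyclins split. Ccnd1 was at 224, 211 and 220.3 FPKM with PBS and 109, 109 and 111 FPKM with lactate (-0.99 ± 0.03). Ccnd2 was at 6.77, 6.13 and 5.69 FPKM and 20.4, 20.6 and 20.2 FPKM (1.57 ± 0.06). Ccnd3 was at 10.9, 10.3 and 10.3 FPKM and 4.45, 4.42 and 4.08 FPKM (-1.11 ± 0.05). Among inhibitors, Cdkn1a (p21) rose from 48.5, 49.4 and 47.7 FPKM to 70.1, 72.8 and 77.01 FPKM (0.58 ± 0.04). Cdkn2c (p18), by contrast, fell from 37.8, 38.96 and 39.2 FPKM to 11.5, 10.02 and 12.1 FPKM (-1.70 ± 0.06). Cdkn2d (p19) fell from 33.3, 34.6 and 35.1 FPKM to 8.796, 8.79 and 10.5 FPKM (-1.77 ± 0.07). Myc, a growth-promoting transcription factor gene, rose while division genes fell, from 37.8, 35.3 and 35.03 FPKM to 94.5, 98.95 and 98.1 FPKM (1.41 ± 0.04). Of the MXD antagonists of MYC, Mxd3 fell from 22.95, 22.8 and 24.4 FPKM to 4.75, 3.85 and 5.16 FPKM (-2.13 ± 0.09) and Mxd4 rose by 0.68 ± 0.06. The Id genes, whose proteins block helix-loop-helix factors, fell together: Id1 was at 65.7, 55.2 and 59.2 FPKM and 11.9, 11.4 and 12.9 FPKM (-2.22 ± 0.07). Id2 and Id3 changed by -2.78 ± 0.12 and -2.88 ± 0.05. Among the other tested genes of BMP and TGF-beta signalling, Smad6 fell by 0.78 on the log2 scale and Smad7, another inhibitor, rose by 0.81 ± 0.05.

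Most genes of the NRF2 pathway rose, and heme and iron genes moved in both directions. Of 26 genes of the NRF2 pathway and thioredoxin 16 rose, 8 fell and 2 missed the threshold (median 0.36). Nfe2l2, which encodes NRF2, was at 15.2, 15.3 and 15.3 FPKM with PBS and 40.8, 43.3 and 42.3 FPKM with lactate (1.41 ± 0.03), and Keap1, which targets it for degradation, fell by 0.50 on the log2 scale. Gclc, the catalytic subunit for glutathione synthesis, was at 14.8, 14.1 and 13.5 FPKM and 36.2, 37.05 and 35.3 FPKM (1.29 ± 0.04). Nqo1, a standard NRF2 target, changed less (0.31 ± 0.04). Txn1, thioredoxin and the most abundant of the list in PBS, fell from 425, 409 and 443 FPKM to 215, 211 and 227 FPKM (-0.96 ± 0.04), and Txnip, its inhibitor, from 6.84, 7.04 and 6.58 FPKM to 1.08, 1.21 and 0.957 FPKM (-1.91 ± 0.07). The antioxidant response element core, TGACNNNGC, was in 12.4% of all windows (14% of all genes with a window) and in 11 of 23 genes of the list with a window (47.8%). Of 15 genes of heme breakdown and iron handling 7 rose, 6 fell and 2 missed the threshold (median 0.02, which changed sign under quantile normalization and without PBS library 2 or lactate library 2). Hmox1, heme oxygenase, was at 7.81, 9.64 and 8.497 FPKM with PBS and 238, 251 and 229 FPKM with lactate (4.64 ± 0.07). This was the largest log2 rise among tested genes with a standard symbol. Fth1, the ferritin heavy chain, was at 638, 603 and 652 FPKM and 1414, 1503 and 1428 FPKM (1.20 ± 0.04). Tfrc, the transferrin receptor, went the other way, from 22.5, 24.98 and 23.3 FPKM to 15.1, 15.2 and 15.4 FPKM (-0.60 ± 0.04). Slc39a14, a zinc and iron importer, rose from 5.86, 5.86 and 5.78 FPKM to 29.6, 30.1 and 30.5 FPKM (2.19 ± 0.03). Metallothionein Mt1 fell from 963, 909 and 856 FPKM to 549.7, 581 and 572 FPKM (-0.68 ± 0.05).

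Autophagy and lysosome genes rose by modest amounts around a few large ones. Of 29 autophagy genes 19 rose, 3 fell and 7 missed the threshold (median 0.30). Sqstm1, the cargo receptor p62, was at 177, 177 and 189 FPKM with PBS and 1200.1, 1239 and 1183 FPKM with lactate (2.73 ± 0.04). Gabarapl1, a membrane-anchored tag of autophagosomes, was at 25.5, 25.3 and 27.7 FPKM and 74.1, 76.1 and 72.5 FPKM (1.47 ± 0.04), while its paralogues Gabarap and Gabarapl2 did not pass (0.09 and -0.03). The kinase genes Ulk1 and Ulk2 did not pass either (-0.02 and -0.02). Of 35 lysosomal genes 24 rose and 4 fell (median 0.22), led by Npc1, a cholesterol exporter of the lysosome (1.33 ± 0.05). Of 17 vacuolar ATPase genes 12 rose and 2 fell (median 0.33), none by 2-fold. Flcn and its partner Fnip1, which signal amino acid supply at the lysosome, rose by 1.29 ± 0.04 and 1.004 ± 0.04.

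Most cholesterol genes fell, and fatty acid genes moved in both directions. Of 29 cholesterol genes 22 fell, 1 rose (Npc1) and 6 missed the threshold (median -0.45). Hmgcs1, an early enzyme of the pathway, was at 136, 144 and 144 FPKM with PBS and 53.6, 56.1 and 56.998 FPKM with lactate (-1.33 ± 0.04). Srebf2, the transcription factor that drives these genes, did not pass, at 104, 97.4 and 103 FPKM and 96.9, 97.8 and 97.7 FPKM (-0.06 ± 0.03, limma adjusted p = 0.149). Of 23 genes of fatty acid and triglyceride synthesis 11 fell, 7 rose and 5 missed the threshold. Elovl6, an elongase, fell from 18.4, 17.6 and 18.4 FPKM to 4.95, 5.87 and 4.78 FPKM (-1.63 ± 0.07). Plin2, which coats lipid droplets, rose from 38.9, 38.9 and 37.2 FPKM to 98.9, 107 and 108 FPKM (1.42 ± 0.04). Fads3, of the desaturase family, rose from 33.5, 33.6 and 32.5 FPKM to 100.1, 95.6 and 96.01 FPKM (1.52 ± 0.03). Of 20 fatty acid oxidation genes 13 fell and 5 rose, among them Cpt1a, the mitochondrial entry step (0.38 ± 0.06).

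**Figure D5:**
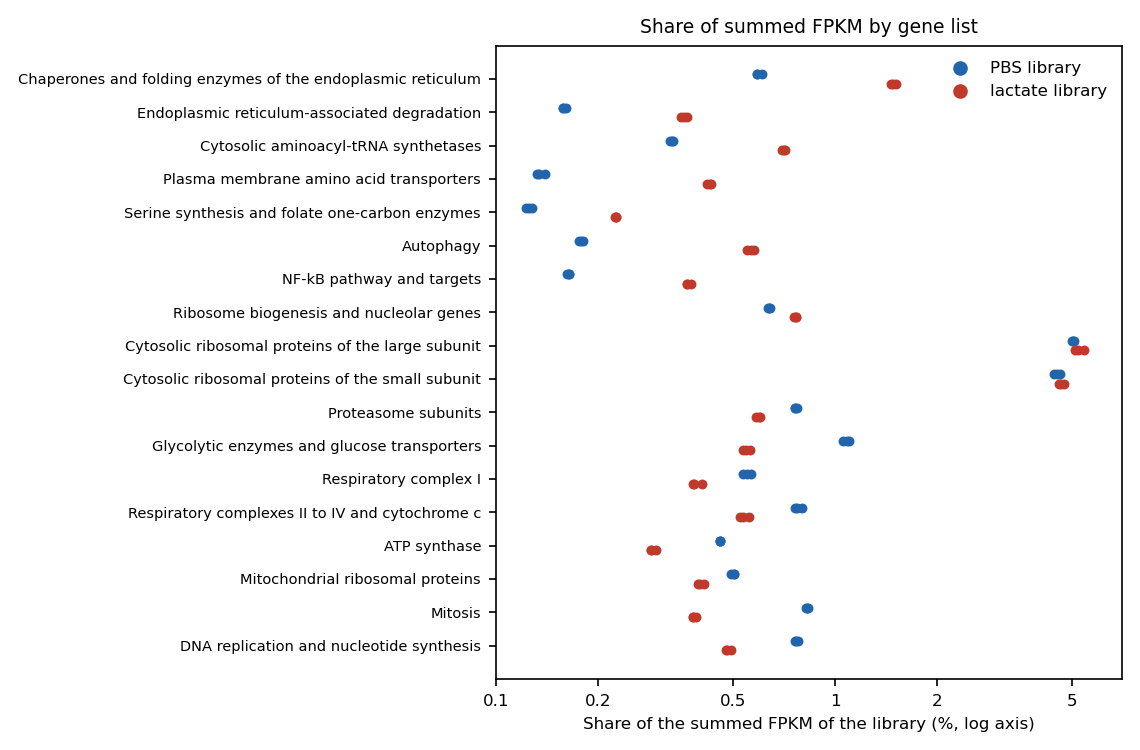
Share of the summed FPKM of each library (x axis, percent, log axis) held by the members of 18 gene lists, with 1 point for each of the 3 PBS and 3 lactate libraries. Chaperones of the endoplasmic reticulum moved from a mean of 0.595% to 1.48% and mitosis genes from 0.825% to 0.383%, while large-subunit ribosomal proteins were at 5.02% and 5.24%.

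Most inflammatory and antiviral genes rose. Of 15 leukocyte markers with an entry, Cd14 and Cd68 rose too and no other reached 1 FPKM in any of the 6 libraries, while 7 were listed at 0 in all. Their sum was 16.3 to 16.7 FPKM with PBS and 19.9 to 21.0 FPKM with lactate, and their part in these results was not tested. Of 29 genes of the NF-kB pathway and its targets 25 rose, 1 fell and 3 missed the threshold (median 0.67). Ptgs2, the inducible prostaglandin synthase, was at 13.1, 13.1 and 11.5 FPKM with PBS and 146, 158 and 146 FPKM with lactate (3.48 ± 0.06). Nfkb2, a subunit and the most abundant of the list, was at 90.7, 89.7 and 93.3 FPKM and 187, 184 and 186 FPKM (1.02 ± 0.03). Nfkbia, the inhibitor that NF-kB is known to induce, was the member that fell, from 74.97, 77.4 and 84.2 FPKM to 55.96, 65.2 and 62.1 FPKM (-0.36 ± 0.07). Among 9 chemokines 7 rose and 2 fell, with Cxcl2 in the list only through its lactate libraries. Cxcl1, a neutrophil attractant, was at 41.7, 45.1 and 46.8 FPKM and 129, 153 and 141 FPKM (1.64 ± 0.07). Its relative Cxcl2 was at 0.111, 0.461 and 0.245 FPKM and 2.896, 3.02 and 2.92 FPKM (1.64 ± 0.11), and Ccl25 fell from 9.003, 8.38 and 7.92 FPKM to 5.99, 6.35 and 5.95 FPKM (-0.41 ± 0.05). Of 32 interferon-stimulated genes 24 rose, 3 fell and 5 missed the threshold (median 0.61). Isg15, a ubiquitin-like modifier, was at 2.59, 2.18 and 3.57 FPKM and 9.27, 11.8 and 10.9 FPKM (1.64 ± 0.14). Ifitm2, a membrane restriction factor and far more abundant, fell from 413, 391 and 419.5 FPKM to 200.3, 199 and 209 FPKM (-1.005 ± 0.04). The core of the interferon-stimulated response element was in 3.44% of all windows (3.99% of all genes with a window) and in 14 of 28 genes of the list with a window (50%). Both rising and falling members had it: 11 of 20 that rose and 2 of 3 that fell.

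Of 15 genes of MHC class I and antigen processing 11 rose and 4 missed the threshold (median 0.29). Nlrc5, the transactivator of class I genes, was at 5.13, 5.17 and 5.11 FPKM with PBS and 17.3, 16.1 and 16.5 FPKM with lactate (1.52 ± 0.04). Tap2, a peptide transporter subunit, was at 3.66, 3.34 and 3.66 FPKM and 9.22, 9.53 and 9.04 FPKM (1.17 ± 0.05). The light chain gene B2m was at 642, 689 and 656 FPKM and 749, 750.2 and 785 FPKM (0.20 ± 0.04). Calr, the largest change of this list, is also a chaperone of the list above. Of 8 checkpoint ligands 5 rose and 1 fell, with Cd274 in the list only through its lactate libraries. Pvr, a ligand of TIGIT, went from 21.7, 20.3 and 19.5 FPKM to 64.9, 64.7 and 66.1 FPKM (1.63 ± 0.04), and Cd274 (PD-L1) from 0.207, 0.456 and 0.419 FPKM to 1.71, 2.02 and 1.75 FPKM (1.06 ± 0.11).

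Death and damage genes rose in part. Of 31 p53 targets 20 rose, 8 fell and 3 missed the threshold (median 0.37). Gadd45a, a stress gene also known as a target of ATF4, was at 4.02, 4.72 and 4.63 FPKM with PBS and 114, 117 and 115 FPKM with lactate (4.42 ± 0.05). Plk2, a polo-like kinase outside the mitosis list, was at 67.2, 73.98 and 66.7 FPKM and 280.5, 296 and 283 FPKM (2.03 ± 0.05), against the fall of Plk1. In the BCL2 family 5 rose, 6 fell and 3 missed the threshold. Bbc3 (PUMA), which promotes death, rose from 9.51, 9.89 and 11.3 FPKM to 37.4, 37.7 and 38.6 FPKM (1.797 ± 0.06). Bok, an effector of the family, fell from 43.1, 43.6 and 42.2 FPKM to 13.1, 14.5 and 13.7 FPKM (-1.58 ± 0.04), and Bax, another effector, did not pass (0.05 ± 0.03, limma adjusted p = 0.225).

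Most immediate early genes rose, and clock, pH and osmotic genes moved in both directions. Of 20 immediate early genes 12 rose, 5 fell and 3 missed the threshold (median 0.71). The largest rise, that of Atf3 (4.24), is also counted among the stress regulators above. Egr1, a zinc finger factor, was at 0.912, 0.808 and 0.628 FPKM with PBS and 4.696, 5.37 and 4.96 FPKM with lactate (1.75 ± 0.08). Of 12 targets of cAMP and CREB 7 rose and 5 missed the threshold (median 0.28), so 58.3% passed, against 70.8% of all genes. Nr4a1, a nuclear receptor gene of that list, was at 7.85, 6.63 and 6.33 FPKM and 15.7, 15.4 and 15.5 FPKM (1.06 ± 0.07). Of 15 clock genes 9 rose, 5 fell and 1 missed the threshold. The activator gene Arntl (BMAL1) rose from 14.1, 13.5 and 14.4 FPKM to 38.3, 39.2 and 42.8 FPKM (1.45 ± 0.05). Nfil3, a repressor of the clock's output, rose from 3.497, 3.95 and 3.17 FPKM to 28.5, 28.5 and 28.7 FPKM (2.71 ± 0.06), and the output factor gene Dbp fell from 3.91, 3.26 and 4.36 FPKM to 2.36, 2.63 and 2.94 FPKM (-0.41 ± 0.10). Of 15 carbonic anhydrases and acid-base transporters 9 rose, 4 fell and 2 missed the threshold (median 0.33). Car6 and Car7 passed the level filter only through the lactate libraries, so they could not be counted as falls. Car6, a secreted carbonic anhydrase, was at 0.285, 0.315 and 0.217 FPKM with PBS and 22.3, 19.4 and 20.9 FPKM with lactate (4.10 ± 0.06), and Car7 was at 0.358, 0.503 and 0.446 FPKM and 2.55, 2.07 and 2.39 FPKM (1.22 ± 0.09). Bicarbonate importer genes Slc4a7 and Slc4a4 rose by 0.66 ± 0.04 and 0.35 ± 0.07. Osmotic stress genes moved in both directions: 6 of 9 fell and 2 rose. Slc5a3, the inositol transporter known as a marker of hypertonic stress, fell from 8.07, 9.35 and 8.34 FPKM to 4.38, 3.69 and 4.08 FPKM (-0.92 ± 0.07). Slc38a2, an amino acid transporter gene, had the largest rise, from 118, 114 and 112 FPKM to 283, 277 and 277 FPKM (1.28 ± 0.03). The list's share of summed FPKM was 0.153% in PBS and 0.187% in lactate. Akr1b3 and Lrrc8a were not analysed here.

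Receptors for lactate and protons were mostly under 1 FPKM. Hcar1 was listed at 0 in all 6 libraries. Of the 9 receptor and channel genes with an entry, only Asic1, an acid-sensing ion channel, was tested, at 3.73, 3.75 and 4.101 FPKM with PBS and 2.55, 2.68 and 2.45 FPKM with lactate (-0.45 ± 0.06).

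Genes at the edge of detection moved in both directions. Among genes with a standard symbol, 11 had at most 0.5 FPKM in every PBS library and at least 2 FPKM in every lactate library. The reverse was found for 3. Sh2d6, an SH2 domain protein gene, was at 0.269, 0.259 and 0.296 FPKM with PBS and 18.9, 16.7 and 18.9 FPKM with lactate (3.91 ± 0.06). Cox6a2, the heart and muscle isoform of a complex IV subunit, appeared at 7.63, 6.71 and 5.68 FPKM from 0.0847, 0.0934 and 0.166 FPKM (2.78 ± 0.10), while the general isoform Cox6a1 fell by 0.54 on the log2 scale. Gfpt2, which feeds the hexosamine pathway, was at 0.319, 0.307 and 0.322 FPKM and 3.42, 3.404 and 4.02 FPKM (1.81 ± 0.08). Apln, the gene of the vessel-acting peptide apelin, went the other way, from 6.58, 6.23 and 5.38 FPKM to 0.0725, 0.0381 and 0.158 FPKM (-2.70 ± 0.09). Akr1c18, an aldo-keto reductase that inactivates progesterone, went from 2.58, 2.79 and 2.0999 FPKM to 0.473, 0.149 and 0.361 FPKM (-1.40 ± 0.13). Krt13, a keratin of stratified epithelium, went from 2.09, 2.23 and 2.04 FPKM to 0.345, 0.3297 and 0.479 FPKM (-1.17 ± 0.09).

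Matrix and adhesion genes moved in both directions. Of 29 matrix genes and proteases 12 rose, 11 fell and 6 missed the threshold (median 0.08). Spp1, osteopontin, was at 117, 118 and 128 FPKM with PBS and 368, 378 and 396 FPKM with lactate (1.64 ± 0.05). Sparc, a collagen-binding glycoprotein and an abundant one, fell from 607, 623 and 614 FPKM to 472, 463 and 493 FPKM (-0.37 ± 0.03). Loxl2, which crosslinks collagen, fell from 6.196, 6.67 and 5.35 FPKM to 2.37, 1.91 and 1.75 FPKM (-1.23 ± 0.10). Of 24 integrins, cadherins and junction genes 12 rose, 7 fell and 5 missed the threshold. Cdh1 (E-cadherin) was at 1.499, 1.92 and 1.74 FPKM and 4.56, 4.37 and 4.64 FPKM (1.03 ± 0.07), the only epithelial marker of 3 tested that rose, while Krt19 fell from 1.65, 1.096 and 1.18 FPKM to 0.338, 0.227 and 0.336 FPKM (-0.82 ± 0.12). Ankrd1, a target of YAP, rose from 69.4, 75.3 and 70.6 FPKM to 227, 234 and 230.1 FPKM (1.67 ± 0.04), and Angptl6, an angiopoietin-like factor, from 0.838, 0.884 and 0.748 FPKM to 21.2, 22.6 and 21.3 FPKM (3.64 ± 0.05).

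By amount of transcript, the falls were led by cytoskeletal and calcium-binding genes beside Pkm and Ldha. Ldha, which interconverts pyruvate and lactate, was at 1089.5, 1140.3 and 1057 FPKM with PBS and 197, 195 and 211 FPKM with lactate (-2.44 ± 0.04). S100a11, a small calcium-binding protein gene, was at 1209, 1240.3 and 1197 FPKM and 386, 395 and 435 FPKM (-1.58 ± 0.05). Actb, cytoplasmic actin, was at 857, 819 and 829 FPKM and 361, 357 and 365 FPKM (-1.21 ± 0.03). Mif, a cytokine gene of the HIF list, fell from 951, 907 and 939 FPKM to 372, 351 and 398 FPKM (-1.32 ± 0.05). Actb is often taken as a constant reference, and here its libraries did not overlap, as was so for 74.8% of all genes tested. Lgals1, galectin-1, was among the 10 largest falls in FPKM with a change of -0.66 ± 0.19 (adjusted p = 0.0183). Its call was lost without PBS library 1, PBS library 2 or lactate library 3, and with no filter on low values. Ldha, Pkm, Fth1 and the S100 genes have related copies in the genome, and how fragments with several matches were counted is not given in the sources used here.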

How the data were processed

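RNA was extracted with Trizol and libraries were made from 1 µg with a TruSeq kit, per the labels' protocols. Reads were aligned with HISAT2 2.0.5 to GRCm38 and counted with featureCounts 1.5.0-p3, per the submitters' processing notes. Identifiers of the genes named here begin with MGP_C57BL6NJ, a strain name, so the gene models may not be those of the GRCm38 reference. How this bears on genes with no detected fragments, or on the match to promoter windows, was not tested. The authors deposited FPKM per gene, in columns coded by guide, treatment and replicate, whose K for sgHcar1 was read by elimination; depth in reads is unknown, and strand use is not given in the sources used here. From these values, log2(FPKM + 1) was fitted with limma 3.58.1 (R 4.3.3; intensity trend, two-sided, Benjamini-Hochberg over 12306 genes) in 3 PBS and 3 lactate libraries, without a replicate block. Tables were made with pandas 2.3.3 in Python 3.11.15. On simulated data the fit recovered 68% of 1.25-fold, 82% of 1.5-fold, 94% of 2-fold and 98% of 4-fold changes. There, 50 of 12306 genes were changed at each size, far fewer than the 8711 that passed in the data. They were drawn from genes above the lowest levels in PBS, with independent normal noise. These rates therefore need not hold for the data, or for genes near the level filter.

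The members and gene lists were chosen with earlier results of these data known. Named genes were the 10 largest rises and falls on each scale, up to 6 genes switched on or off, and for each list its 4 largest changes, 2 largest against its median and its most abundant member. Outside the lists, ranks were taken among the 10051 tested genes with a standard symbol, not a model number such as Gm or Rik. The largest rises and falls also had to pass the threshold without overlap of PBS and lactate libraries. Genes named outside this rule, for their role or as a paralogue, were chosen after their values were seen. Of 1661 listed genes 1589 had an entry and 1370 were tested; the rest were under the level filter or not analysed here, and a few results are not reported here. Same-numbered PBS and lactate libraries did not deviate together (correlations 0.035, 0.004 and 0.065), so numbers were not used as pairs. Alternatives were other pseudocounts, filters, scalings and models, and leaving out each library.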

Additional observations from a re-analysis of the deposited data

Results flagged for a closer look

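The effect of lactate was also tested in cells with the guide against Hcar1, and results were taken up here where the difference between the 2 guides itself passed the threshold. The limma interaction over all 12 libraries was adjusted over all genes. It was read for the 39 genes with the largest changes among those with a standard symbol, of which 29 passed. The genes were chosen for large changes in the sgControl libraries, whose values also enter the difference, so a smaller effect in the other guide is favoured by the choice and nothing is read from how many differences point each way. Values are the effect of lactate in sgHcar1 cells minus that in sgControl cells, on the log2 scale.

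The lactate effect was smaller in sgHcar1 cells for 7 regulators and targets of the integrated stress response: Trib3 (-3.51), Gdf15 (-2.94), Gadd45a (-1.20), Atf3 (-4.18), Chac1 (-2.66), Ddit3 (-1.38) and Atf4 (-1.44). Ppp1r15a, another regulator and among the 10 largest rises, did not pass (0.09, limma adjusted p = 0.224). Other genes that rose in sgControl cells also had a negative difference: Nars (-0.52), Slc3a2 (-0.96), Herpud1 (-1.57), Hspa5 (-0.15), Sqstm1 (-0.19), Ccl2 (-0.63), Car6 (-0.70) and Sh2d6 (-1.70). The difference was positive for the risers Hmox1 (1.92), Calr (0.79) and Eef2 (0.30). Among genes that fell in sgControl cells, the difference was positive for Egln3 (2.94), Nrn1 (2.72), Id2 (0.84), Ankrd37 (0.73), Ldha (0.79) and Id3 (0.51). Their changes in sgHcar1 cells were, in this order, -0.09, -0.0, -1.94, -1.92, -1.66 and -2.37, so none of them rose there. A gene hardly expressed in sgHcar1 cells would show no change either, and levels in those cells are not given here. The difference was also positive for the abundant genes S100a10 (0.55), Actb (0.61), Cfl1 (0.43) and Mif (0.27), which fell. Apln, which fell, had a negative difference (-0.34).

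The sum of FPKM was 310109 to 324562 in the sgControl libraries and 362815 to 421984 in the sgHcar1 libraries, so differences of this kind depend on the scaling. The one sum was 1000000, above that of every library, so the added 1 weighed less there. Scaling and pseudocount thus changed together in that setting and cannot be told apart, above all for genes near 0 FPKM. With median-ratio scaling Apln stayed at -0.35 and Car6 at -0.69. With each library rescaled to one sum, Apln changed sign and Id3, Eef2 and Mif did not pass. With quantile normalization Eef2 and Mif changed sign and Cfl1 did not pass. Differences that kept their sign and call but moved by over 1.5 times were, with one sum, Car6 (-1.94), Hspa5 (-0.39), Sqstm1 (-0.42), Cfl1 (0.20), S100a10 (0.31) and Actb (0.38), and with quantile normalization, Hmox1 (0.94), Car6 (-1.08), Id3 (0.85), Id2 (1.28), Ankrd37 (1.15), Hspa5 (-0.87), Sqstm1 (-0.65), Calr (0.19), Nars (-1.21), Slc3a2 (-1.55) and Actb (0.19). What sets the sums apart was not tested.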

How the results depend on the processing

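The counts of genes past the threshold stayed within 1.5 times their values under each alternative tried, except for 2-fold changes under another pseudocount. With a pseudocount of 5, 287 genes were at least 2-fold higher and 172 at least 2-fold lower, against 581 and 403, and with 0.1, 686 were at least 2-fold lower. Leaving out each library in turn gave 4198 to 4277 genes that rose, 3921 to 4047 that fell, 575 to 595 at least 2-fold higher and 397 to 432 at least 2-fold lower. The fit with a replicate block gave 4395 that rose and 4162 that fell, with 582 and 404 at least 2-fold. Of 366 genes named by rule, Npm1 (0.0395, adjusted p = 0.422) and Axl (0.0462, adjusted p = 0.196) changed sign under quantile normalization, and 22 lost their call in some setting. Those among them described in the report are Slc6a6, Lgals1, Cs (quantile normalization), Hsp90ab1 (no filter on low values) and Rpl8 (both of these). For the difference between guides, rescaling to one sum turned Ppp1r15a to -0.19 and Apln to 0.66, and quantile normalization turned Ppp1r15a to -0.40, Eef2 to -0.19, Pkm to -0.20 and Mif to -0.20; the cause was not tested. Rescaling to one sum also lowered the weight of the added 1. These scalings of the difference were chosen after seeing the data. The share of calls that were higher was 51.5%, and 55.6% and 48.3% under these scalings. Medians of 60 of the 65 lists moved by more than the median standard error of their members in some setting, 39 of them with rescaling to one sum, 37 with a pseudocount of 5, 26 under quantile normalization and 19 with a mean of at least 5 FPKM. Medians of the BCL2, iron, metallothionein, fibroblast marker and ribosomal protein lists lie so near 0 that they changed sign in some setting. With no read counts, the limit of detection cannot be given.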

Other observations

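Some lists were not described above. Of 24 histone acetyltransferases and deacetylases 11 rose, 7 fell and 6 missed the threshold (median 0.11), and none changed 2-fold on the log2(FPKM + 1) scale, which understates changes at low levels. Hdac4, a deacetylase that shuttles between nucleus and cytoplasm, rose from 2.14, 1.86 and 2.02 FPKM to 5.03, 4.99 and 4.702 FPKM (0.98 ± 0.06). Hdac1, the most abundant of the list in PBS, fell from 37.9, 40.3 and 39.8 FPKM to 24.8, 22.7 and 23.7 FPKM (-0.71 ± 0.04). PBS and lactate libraries did not overlap for either gene, as was so for 74.8% of all genes tested.

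Of 9 pentose phosphate genes 3 rose, 5 fell and 1 missed the threshold (median -0.11). G6pdx, the entry enzyme of the oxidative branch, rose from 46.4, 44.3 and 45.5 FPKM to 61.3, 60.8 and 58.3 FPKM (0.40 ± 0.03). Taldo1, transaldolase of the other branch, fell from 84.4, 81.2 and 80.5 FPKM to 57.2, 59.4 and 59.8 FPKM (-0.47 ± 0.03). Of 16 feedback genes of ERK signalling 7 rose, 3 fell and 6 missed the threshold, led by Spry4, an inhibitor of the pathway, which rose from 1.67, 1.496 and 1.84 FPKM to 7.57, 7.15 and 6.88 FPKM (1.62 ± 0.07).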
